A study of Mus musculus with 16 samples.

Results

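The integrated stress response and the serine synthesis genes tied to it are described here through 10 genes chosen by name: Atf4, Ddit3, Trib3, Chac1, Asns, Psat1, Phgdh, Gdf15, Fgf21 and Sesn2. They were found by symbol among the 27446 entries of the deposited liver table, and all 10 were present. The study sequenced RNA from livers of wild-type C57BL/6 mice in 16 libraries, 8 per group. The emodin group received emodin, an anthraquinone of rhubarb, into the stomach at 400 mg/kg for 3 weeks, carried in 0.5% sodium carboxymethyl cellulose, and the vehicle group received that carrier alone. Both groups were wild-type and had been acclimated for 7 days, and the age of the mice is not given in the sources used here. The labels do not say that each library came from its own mouse, so p-values measure the spread between these libraries, each called a liver below.

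In the integrated stress response, kinases that sense unfolded protein, amino acid shortage, haem shortage or viral RNA phosphorylate the translation factor eIF2. General protein synthesis then slows, while translation of the transcription factor ATF4 rises, so that much of the control of Atf4 lies in translation rather than in the RNA measured here. ATF4, often paired with C/EBP proteins, drives genes of amino acid uptake, asparagine and serine synthesis, redox balance and cell death, and in liver it also drives the secreted hormones FGF21 and GDF15.

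A C/EBP-ATF composite site joins the binding letters of a C/EBP protein and of ATF4, and this motif was searched in the promoters of the 10 genes. Its letters were TGATGNAAN on the forward strand or NTTNCATCA on the reverse, in the 250 bases before each start in the RefSeq promoter table (GRCm38.p6), in which all 10 genes matched by symbol. It was present in 3 of the 10 genes, Chac1, Asns and Fgf21, against 3.89% of the 27025 symbols in that table. The exact 8-letter form, TGATGCAA or its reverse TTGCATCA, which overlaps the longer motif, was present in Chac1 and Fgf21, against 0.918% of all symbols. These 3 sequences are shown because they carry the motif, given in capitals. The promoter of Psat1 is shown as an example of a gene that rose and holds no match in this window. Gdf15 and Sesn2, which were also called higher with emodin, hold no match either, and Chac1, Asns and Fgf21 were not called. The further starts listed for Psat1 and Gdf15 hold no match as well. For Chac1 the stretch stops where GENCODE M21 places its exon, and for Asns only 30 bases around the match are given, since the match lies in an annotated exon there. All are written 5′ to 3′ along the strand of the gene, at chr2:119350992-119351228 (plus) for Chac1, chr6:7693213-7693242 (minus) for Asns, chr7:45615491-45615740 (minus) for Fgf21 and chr19:15925060-15925309 (minus) for Psat1.
Chac1: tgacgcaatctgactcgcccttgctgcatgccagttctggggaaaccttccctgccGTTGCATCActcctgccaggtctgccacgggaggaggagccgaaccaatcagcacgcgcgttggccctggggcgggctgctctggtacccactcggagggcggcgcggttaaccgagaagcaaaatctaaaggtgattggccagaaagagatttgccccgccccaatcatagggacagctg
Asns: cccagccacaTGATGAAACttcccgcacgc
Fgf21: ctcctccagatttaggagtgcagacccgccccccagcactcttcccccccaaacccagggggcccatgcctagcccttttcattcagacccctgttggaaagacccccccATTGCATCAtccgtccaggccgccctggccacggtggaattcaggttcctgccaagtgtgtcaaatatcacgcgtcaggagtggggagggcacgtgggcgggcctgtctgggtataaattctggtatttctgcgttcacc
Psat1: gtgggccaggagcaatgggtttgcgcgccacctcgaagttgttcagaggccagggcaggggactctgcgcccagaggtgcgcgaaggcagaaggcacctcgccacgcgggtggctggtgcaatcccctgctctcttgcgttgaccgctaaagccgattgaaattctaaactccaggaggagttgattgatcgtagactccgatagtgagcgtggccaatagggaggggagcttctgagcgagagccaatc
A match is a description of letters, not of binding, and the lack of one says only that these letters are not in this window.

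Of the 10 genes, 3 were higher with emodin: Gdf15, Psat1 and Sesn2 (edgeR quasi-likelihood test, Benjamini-Hochberg adjusted p under 0.05 over all 14308 entries tested). None was called lower, 6 were not called, and Phgdh was below the filter on low counts and was not in this fit. Over all tested entries 13.2% were called, 7.70% as higher and 5.47% as lower. All 9 tested genes had a log2 fold change above 0, with a median of 0.89, beside a median of 0.01 and 51.6% above 0 over all entries. This was not a uniform rise. The emodin median was below the vehicle median for Ddit3 (5.58 against 6.23 CPM) and Trib3 (8.82 against 9.32 CPM). For Atf4 both medians were 79.2 CPM, and Atf4 and Trib3 turned sign in some fits with 1 liver left out. At an unadjusted p under 0.05 there were 6 of the 9 tested genes (Chac1, Asns, Psat1, Gdf15, Fgf21 and Sesn2) and 4249 of all 14308 tested entries. In none of the 10 did the groups separate fully, as they did in 1.97% of all tested entries.

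The libraries held 28.3 to 48.2 M estimated counts (M, mega). Levels are given in CPM (counts per 1 M counts of the library, after TMM scaling with factors of 0.929 to 1.16), with n = 8 livers per group, and fold changes as log2 of emodin over vehicle ± SE. The label liver was checked against 8 hepatocyte genes including Alb and Ttr, which together made 104575 to 133722 CPM in vehicle livers and 60068 to 113716 CPM in emodin livers, lowest in emodin 4 and 8. Alb made up most of this sum, at 72639 to 100479 CPM in vehicle livers. It was called lower with emodin, and the other 7 hepatocyte genes were not called. Markers of pancreas and kidney stayed below 20 CPM in sum, with Cela3b, Prss2, Clps, Kap, Slc22a6 and Aqp2 at 0 in every liver. In whole liver, fewer cells of a type and less RNA per cell cannot be told apart.

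**Figure D1:**
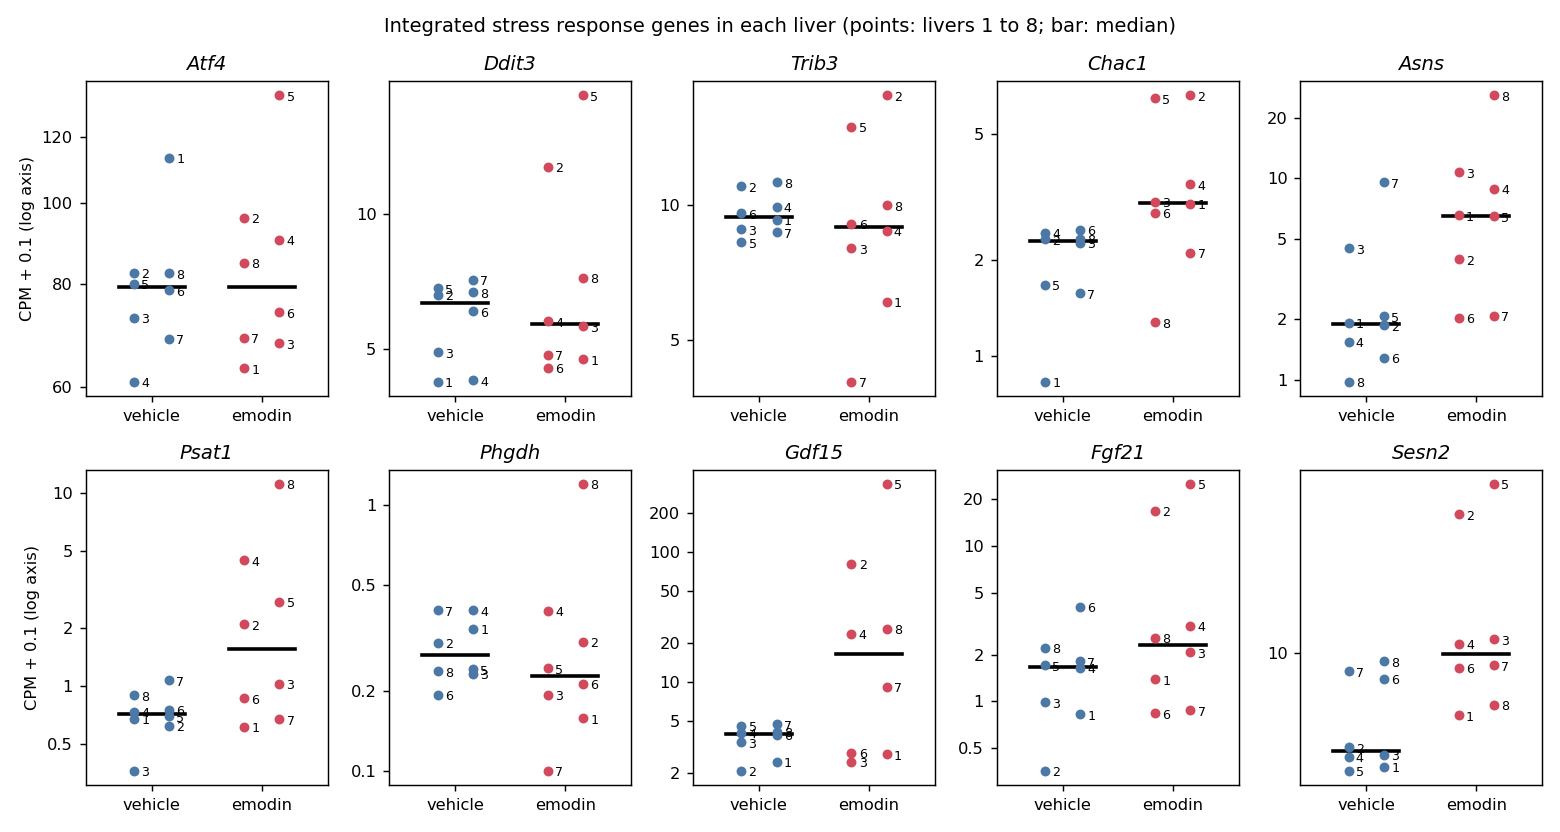
CPM + 0.1 on a log axis for each of the 10 genes (panels), with 1 point per liver, numbered 1 to 8, and a bar at the group median. Emodin 5 and 2 are the highest points for Gdf15, Fgf21, Sesn2, Ddit3, Trib3 and Chac1, whereas emodin 8 is the highest for Asns, Psat1 and Phgdh, and the median of Atf4 is 79.2 CPM in both groups.

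Atf4 RNA (chr15:80255184-80257541, mm10), which encodes the central transcription factor, was at 113, 82.4, 72.7, 60.8, 79.9, 78.4, 68.6 and 82.3 CPM in vehicle livers 1 to 8. In emodin livers 1 to 8 it was at 63.2, 96.0, 67.7, 90.2, 135, 73.8, 68.8 and 84.6 CPM. Emodin 5 alone lay above every vehicle liver, the groups otherwise covered the same range, and the medians were 79.2 and 79.2 CPM. The log2 fold change was 0.09 ± 0.15 (edgeR adjusted p = 0.729), and -0.04 without emodin 5.

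Ddit3 encodes CHOP, a pro-apoptotic transcription factor induced by ATF4 (chr10:127290774-127296288). Vehicle livers 1 to 8 had 4.11, 6.50, 4.81, 4.15, 6.72, 5.96, 7.02 and 6.58 CPM, and emodin livers 1 to 8 had 4.63, 12.7, 5.51, 5.65, 18.3, 4.43, 4.74 and 7.11 CPM. Emodin 2 and 5 stood well above the vehicle range and emodin 8 just above it, while the other 5 emodin livers lay inside it. The log2 fold change was 0.46 ± 0.28 (edgeR adjusted p = 0.299), and 0.16 without emodin 5. Exons of Ddit3 overlap those of Mars on the opposite strand, and whether the counting used strand is not given in the sources used here, so its level is uncertain.

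Trib3 encodes a pseudokinase that is induced by ATF4 and CHOP and restrains ATF4 (chr2:152337422-152344032). Its vehicle range was narrow, from 8.16 to 11.1 CPM with a median of 9.32. Emodin livers 1 to 8 had 5.98, 17.4, 7.91, 8.66, 14.8, 8.98, 3.93 and 9.88 CPM. Emodin 2 and 5 were above every vehicle liver and emodin 1, 3 and 7 below every one, so the emodin group spread to both sides. Its SD was 4.45 CPM in the emodin group and 1.07 CPM in the vehicle group, and its log2 fold change was 0.03 ± 0.22 (edgeR adjusted p = 0.942). The sign turned to -0.15 without emodin 2 and -0.08 without emodin 5.

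Chac1, which encodes an enzyme that degrades glutathione, and Sesn2, a sestrin that restrains mTORC1 signalling, are both known targets of ATF4. Chac1 (chr2:119351229-119354381) had 0.725, 2.23, 2.17, 2.34, 1.58, 2.39, 1.47 and 2.24 CPM in vehicle livers 1 to 8. In emodin livers 1 to 8 it had 2.92, 6.54, 2.96, 3.38, 6.41, 2.73, 2.01 and 1.17 CPM. Emodin 1 to 6 were all above the vehicle range, the most of any of the 10 genes, while emodin 7 and 8 were inside it. The log2 fold change was 0.89 ± 0.32 and was not called (edgeR adjusted p = 0.0718). It passed when emodin 7 (0.98, adjusted p = 0.0492) or emodin 8 (1.02, adjusted p = 0.0293) was left out.

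Sesn2 (chr4:132492032-132510501) had 6.80, 7.26, 7.08, 7.03, 6.72, 9.10, 9.33 and 9.64 CPM in vehicle livers 1 to 8, and 8.06, 15.6, 10.4, 10.2, 17.3, 9.43, 9.51 and 8.35 CPM in emodin livers 1 to 8. Emodin 2, 3, 4 and 5 lay above every vehicle liver, and all 8 emodin livers lay above the vehicle median of 7.17 CPM. It rose 1.41-fold, or 0.50 ± 0.16 on the log2 scale (edgeR adjusted p = 0.0460). This call was close to the threshold and was lost without any one of vehicle 1 to 7 or without emodin 2, 4 or 5. In those fits the log2 fold change was 0.38 (without emodin 5) to 0.53 (without vehicle 6 or 7), and no filter, array quality weights and limma-trend also ended it (0.50, 0.38 and 0.42).

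The amino acid synthesis genes were highest in emodin 8 rather than in emodin 2 or 5. Asns, which makes asparagine (chr6:7675169-7693254), had 1.81, 1.76, 4.38, 1.44, 1.96, 1.18, 9.43 and 0.874 CPM in vehicle livers 1 to 8. In emodin livers 1 to 8 it had 6.43, 3.85, 10.6, 8.77, 6.37, 1.92, 1.98 and 25.7 CPM. All 8 emodin livers were above the vehicle median of 1.79 CPM, yet vehicle 7 exceeded 6 of them, and emodin 3 and 8 alone exceeded every vehicle liver. The log2 fold change was 1.53 ± 0.59 and was not called (edgeR adjusted p = 0.0989). Leaving out vehicle 7 gave a call (2.10, adjusted p = 0.0274), and leaving out emodin 8 lowered the value to 1.00.

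Serine is made from a glycolytic intermediate in 3 steps, by PHGDH, PSAT1 and PSPH in turn. Phgdh, the entry step (chr3:98313170-98339990), was close to undetected: vehicle livers 1 to 8 held 8, 7, 4, 9, 4, 3, 9 and 5 estimated counts, and emodin livers 1 to 8 held 2, 9, 4, 13, 4, 5, 0 and 43. Emodin 8 was the single liver above the vehicle range, at 1.10 CPM against at most 0.301 CPM in vehicle livers, and emodin 1, 3 and 7 were below it. The group means were 0.193 ± 0.0807 and 0.250 ± 0.353 CPM (SD, exact two-sided permutation p = 0.908), and without emodin 8 the difference changed sign, from 0.0568 to -0.0639 CPM (exact permutation p = 0.187). The count of 0 in emodin 7 does not show absence at this depth.

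Psat1, the transaminase of the middle step (chr19:15904678-15947337), was low in every vehicle liver, at 0.574, 0.520, 0.263, 0.636, 0.595, 0.652, 0.970 and 0.792 CPM. Emodin livers 1 to 8 had 0.515, 1.98, 0.925, 4.39, 2.63, 0.760, 0.570 and 11.0 CPM. Emodin 2, 4, 5 and 8 were above every vehicle liver, and emodin 1, 3, 6 and 7 stayed in the vehicle range. It rose 4.54-fold, which is 2.18 ± 0.59 in log2 terms (edgeR adjusted p = 0.0250), on 8 to 29 estimated counts in vehicle livers and 18 to 433 in emodin livers. Without emodin 8 the value was 1.42, and the call held whichever of the 16 livers was left out. It was lost with array quality weights (0.77) and in limma-trend on log2(CPM + 1) (0.87).

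Markers of bile duct cells gave a mixed picture beside Psat1. Krt19, Krt7, Epcam, Sox9, Spp1 and Cftr summed to 37.9 to 66.4 CPM in vehicle livers. Their sum was 173 CPM in emodin 4, 118 CPM in emodin 8 and 34.0 to 47.8 CPM in the other 6 emodin livers. Emodin 2 and 5 were also above every vehicle liver in Psat1. Their marker sums were 45.4 CPM, inside the vehicle range, and 34.0 CPM, below it. Sox9 was at 2.51 to 4.47 CPM in vehicle livers and at 8.18, 14.2, 5.80 and 20.1 CPM in emodin 2, 4, 5 and 8, the livers with the highest Psat1. Spp1 was at 32.4 to 57.4 CPM in vehicle livers and at 154 and 95.5 CPM in emodin 4 and 8, where it made up most of the sum. Krt7 was at 0.165 to 0.528 CPM in vehicle livers and at 0.873 and 0.713 CPM in emodin 4 and 8. It was also above its vehicle range in emodin 1 (0.629 CPM), the emodin liver with the lowest Psat1. Epcam was above its vehicle range of 0.765 to 2.52 CPM in emodin 4 (2.87) and inside it in emodin 8 (0.968). Krt19 was inside its vehicle range of 0.333 to 1.79 CPM in both livers (1.01 and 0.713 CPM), and Cftr was at 0.551 CPM in emodin 4 and at 0 in emodin 8. The part of these markers in the Psat1 result was not tested.

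Psph, the last step, covered 2.80 to 4.56 CPM with vehicle and 2.88 to 8.79 CPM with emodin, and had a log2 value of 0.22 for emodin over vehicle (edgeR adjusted p = 0.492). Ratios within a liver, taken as log2 of CPM with a prior count of 2, compare the steps without library scaling. The Psat1 to Phgdh ratio averaged 1.45 ± 0.55 with vehicle and 3.05 ± 0.57 with emodin (SD, n = 8 each), a difference of 1.61. With this prior count all 8 emodin livers exceeded the highest vehicle ratio of 2.24, the lowest by little, at 2.28 in emodin 6 (exact two-sided permutation test over 12870 assignments, p = 0.000155, 0.000311 after Benjamini-Hochberg adjustment over 2 ratios). The Psat1 to Psph ratio was -2.56 ± 0.37 and -1.31 ± 1.25, a difference of 1.25 (exact permutation p = 0.0219, adjusted 0.0219), with 5 of 8 emodin livers above every vehicle liver. The Phgdh side rests on at most 13 counts in every liver but emodin 8, with 0 in emodin 7, and the full separation depends on the prior count. With a prior count of 0.5, 7 of 8 emodin livers exceeded every vehicle liver. On the deposited counts with no prior, an alternative chosen after seeing the data, emodin 6 had a linear ratio of 6.8 against 7.0 in vehicle 6, and 6 of the 7 emodin livers with a ratio were above the vehicle range (log2 difference 1.70, exact permutation p = 0.000777).

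**Figure D2:**
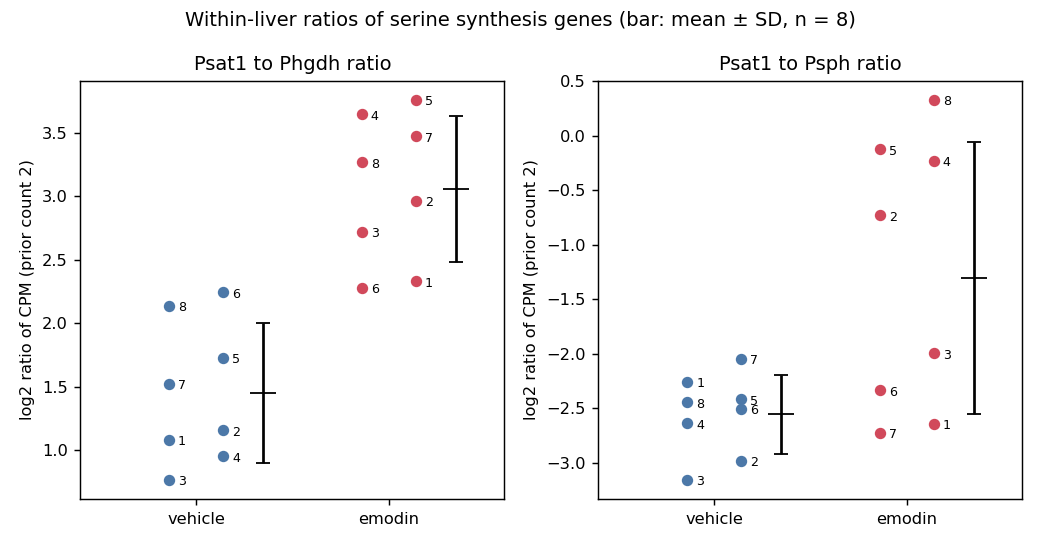
Log2 ratios of CPM within each liver, Psat1 to Phgdh and Psat1 to Psph, with 1 point per liver and a bar at the group mean ± SD (n = 8). With the prior count of 2 all 8 emodin livers exceed the highest vehicle liver in the ratio to Phgdh (7 of 8 with a prior count of 0.5), and 5 of 8 do in the ratio to Psph.

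Of the secreted stress hormones, Gdf15 had the largest coefficient of variation of the 10 genes in the emodin group (189%, against 141% for Fgf21 and 141% for Phgdh). Gdf15 (chr8:70629393-70632456), a cytokine that lowers food intake through the hindbrain receptor GFRAL, was at 1.99 to 4.65 CPM in vehicle livers, with a median of 3.92. Emodin livers 1 to 8 had 2.69, 80.8, 2.36, 23.5, 333, 2.77, 9.09 and 25.7 CPM. Emodin 2, 4, 5, 7 and 8 were above every vehicle liver, and emodin 1, 3 and 6 were inside the vehicle range. It rose 16.6-fold as a group, or 4.06 ± 1.01 on the log2 scale (edgeR adjusted p = 0.0185). The value without emodin 5 was 2.55, and the call held whichever liver was left out. Array quality weights and limma-trend gave 1.00 and 1.95, with no call.

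Fgf21 (chr7:45613886-45615490), a hepatic hormone of fasting and amino acid shortage, was at 0.725, 0.260, 0.889, 1.54, 1.61, 3.95, 1.71 and 2.10 CPM in vehicle livers 1 to 8. Emodin livers 1 to 8 had 1.29, 16.6, 1.97, 2.96, 24.7, 0.738, 0.780 and 2.47 CPM. Emodin 2 and 5 stood far above the vehicle range and the other 6 livers lay within it. The log2 fold change of 2.00 ± 0.78 was not called (edgeR adjusted p = 0.10). It was 1.27 without emodin 5 and 1.63 without emodin 2.

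On the receiving side, 5 of 7 listed genes of FGF and GDF15 receptors and co-receptors were tested, with 0 higher and 2 lower (median log2 fold change -0.24). Among all tested entries 7.70% were called higher and 5.47% lower. Klb, the co-receptor that FGF21 needs, fell from 23.4 to 40.8 CPM in vehicle livers to 10.6 to 22.7 CPM in emodin livers. The groups did not overlap, as in 1.03% of all tested entries in that direction, and the log2 fold change was -0.75 ± 0.17 (edgeR adjusted p = 0.00886). Fgfr4, the main hepatocyte FGF receptor, had -0.24 (adjusted p = 0.0309) and lost its call without vehicle 1, 4, 5 or 8 or emodin 2, 5 or 8, at -0.21 to -0.24, and with array quality weights, total counts or no filter (-0.21, -0.21 and -0.23). Gfral held 0 counts in every liver.

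Other regulators of these hormones were read beside them. For comparison, 7.70% of all tested entries were called higher and 5.47% lower. PPARα drives Fgf21 in fasting, and 0 of its 12 listed genes were called (median log2 fold change -0.07). Ppara had -0.11 (edgeR adjusted p = 0.746), and Cyp4a14, the listed gene with the smallest p, had -0.99 (adjusted p = 0.110). Without emodin 5 there were 2 called lower and with array quality weights 1, and Cyp4a14 passed in both (-1.29 and -1.21, adjusted p = 0.0366 and 0.0289 from edgeR and limma). p53 is a known inducer of Gdf15 and Sesn2, and 2 of 10 tested p53 genes rose with 0 lower (median 0.40). Btg2, an inhibitor of proliferation, had 2.70 ± 0.67 (edgeR adjusted p = 0.0178), with 1.41 without emodin 5, 1.33 in DESeq2, 1.29 with array quality weights and 1.70 in limma-trend. Cdkn1a, which encodes the cell cycle inhibitor p21, had 2.16 ± 0.58 (adjusted p = 0.0260) and lost its call without emodin 4 (1.99, adjusted p = 0.0533), with array quality weights (0.93) and in limma-trend (1.47). Trp53 itself had 0.32 and was not called (adjusted p = 0.111), but passed without emodin 7 (0.40, adjusted p = 0.0211).

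Read by liver, the 10 genes did not move together. Emodin 5 exceeded every vehicle liver in 8 genes, all but Asns and Phgdh, and emodin 2 did so in 7, all but Atf4, Asns and Phgdh. Emodin 8 did so in 5 (Ddit3, Asns, Psat1, Phgdh and Gdf15), emodin 4 in 4 (Chac1, Psat1, Gdf15 and Sesn2) and emodin 3 in 3 (Chac1, Asns and Sesn2). Emodin 1, 6 and 7 did so in 1 gene each. Emodin 5 was the highest emodin liver for Atf4, Ddit3, Gdf15, Fgf21 and Sesn2, emodin 2 for Trib3 and Chac1, and emodin 8 for Asns, Psat1 and Phgdh. Emodin 8, the highest for these last 3, was the lowest emodin liver for Chac1.

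**Figure D3:**
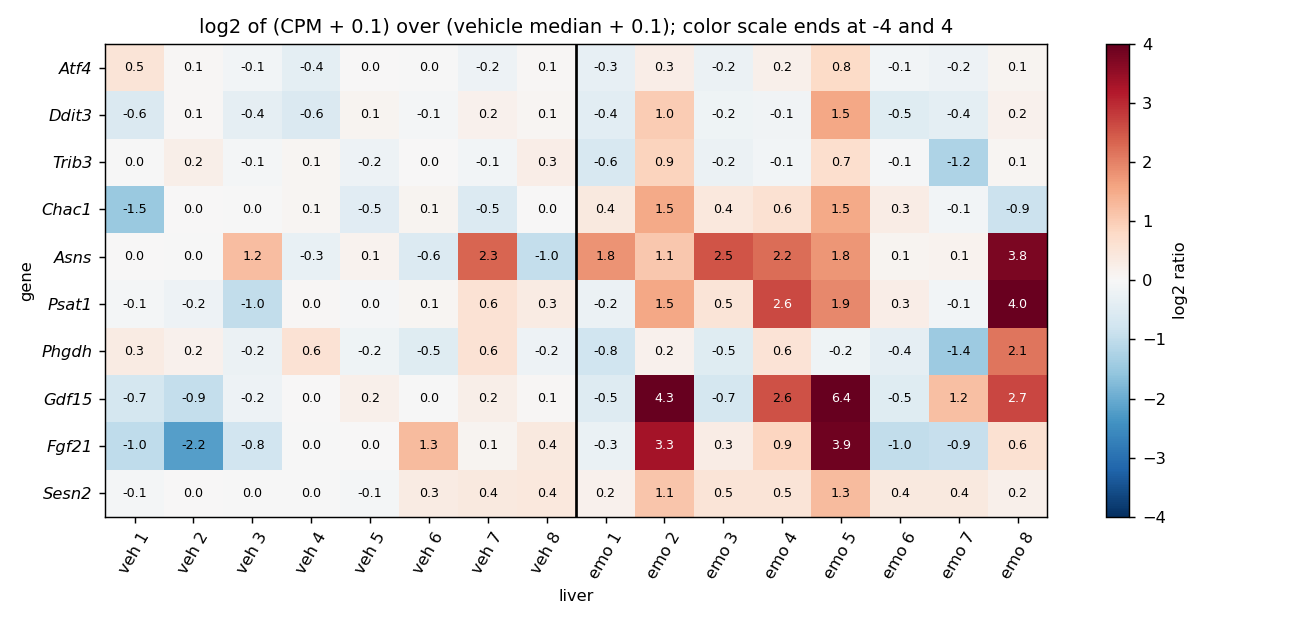
Log2 of CPM over the vehicle median (CPM + 0.1 in both) for the 10 genes in rows and the 16 livers in columns. Emodin 5 and 2 are above the vehicle range in 8 and 7 genes, and emodin 1, 6 and 7 in 1 gene each.

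Per length of exon, the 10 genes covered a wide range of levels. In vehicle livers Atf4 was highest at 33.8 ± 6.55 RPKM (CPM per kilobase of exon, SD, n = 8), and Trib3 and Ddit3 followed at 4.47 ± 0.503 and 3.35 ± 0.698 RPKM. Sesn2 (2.26 RPKM), Gdf15 (1.94), Fgf21 (1.68), Chac1 (1.16) and Asns (1.04) came next, in an order whose neighbours did not differ beyond their SDs of 0.360, 0.525, 1.18, 0.358 and 1.05 RPKM. Psat1 and Phgdh were lowest, at 0.147 ± 0.0481 and 0.0778 ± 0.0324 RPKM. In emodin livers Atf4 stood at 36.0 ± 9.85 RPKM and Gdf15 at 32.4 ± 61.2 RPKM, with an SD larger than its mean. Fgf21 followed at 6.78 ± 9.55 RPKM, and Psat1 was at 0.670 ± 0.837 RPKM.

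The list of eIF2 kinases and translation factors lies upstream of ATF4, except that it also holds Ppp1r15a, an ATF4 target. Of its 16 tested genes 7 rose and 0 fell (median log2 fold change 0.15). The eIF2B subunits, which recharge eIF2 with GTP, made up most of these. Over all tested entries 7.70% were called higher and 5.47% lower. Eif2b4 rose by 0.36 ± 0.09 (edgeR adjusted p = 0.0143), Eif2b3 by 0.53 ± 0.14 (adjusted p = 0.0193) and Eif2b2 by 0.32 (adjusted p = 0.0260) on the log2 scale. Ppp1r15a, which encodes GADD34, the ATF4-induced subunit that returns eIF2 to its unphosphorylated state, went from 9.63 to 17.6 CPM in vehicle livers to 13.3 to 49.8 CPM in emodin livers. It had 0.87 ± 0.24 (adjusted p = 0.0277). Of the kinases, Eif2ak2 (PKR, the sensor of double-stranded RNA) had 1.00 ± 0.30 (adjusted p = 0.0353). Eif2ak1 (HRI), Eif2ak3 (PERK) and Eif2ak4 (GCN2) were not called, at -0.10, 0.02 and 0.07, and Eif2ak3 turned sign in some alternatives.

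The number of calls varied between settings. It was 7 with RLE factors and with TMM without the 50 most abundant genes, 5 with no filter, 4 with scaling by total counts alone and 4 with array quality weights. With total counts the median log2 fold change was 0.18 and Eif2b2 had 0.36 without a call. The count fell to 4 without vehicle 2 or 4 and to 3 without vehicle 5, emodin 2 or emodin 4. Eif2b2 lost its call without vehicle 5 (0.29) or emodin 4 (0.27), and Ppp1r15a without vehicle 3 (0.86), vehicle 5 (0.83) or emodin 2 (0.84). Eif2ak2 lost it with 11 of the 16 livers left out, all but vehicle 3 and emodin 1, 3, 6 and 7, at 0.73 (without emodin 8) to 1.04. It was also not called with array quality weights (0.41), in limma-trend (0.76) or with no filter (1.01), and Ppp1r15a was not with array quality weights (0.53). Eif2b4 and Eif2b3 kept theirs with each liver left out.

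Among 9 partner factors, 2 rose and 2 fell (median -0.03), beside 7.70% higher and 5.47% lower over all tested entries. Atf3, a stress-induced repressor downstream of ATF4, ranged from 0.736 to 3.32 CPM in vehicle livers and from 0.671 to 552 CPM in emodin livers, with 5.73 ± 1.40 (edgeR adjusted p = 0.0174) and 3.71 without emodin 5. Nupr1, a chromatin-associated stress protein, had 3.08 ± 0.76 (adjusted p = 0.0168), with 0.362 to 1.91 CPM in vehicle livers and 0.686 to 23.3 CPM in emodin livers. With array quality weights neither was called (1.12 for Atf3 and 1.61 for Nupr1), nor in limma-trend (2.43 and 1.53). Sesn3, a sestrin related to Sesn2, had -0.44 (adjusted p = 0.0329), and Trib2, a tribbles pseudokinase related to Trib3, had -0.77 (adjusted p = 0.0401). Sesn3 lost its call without vehicle 1, 3, 4 or 5 or emodin 2, 4 or 5 (-0.38 to -0.43) and with array quality weights (-0.37). Trib2 lost its call without any liver other than vehicle 1, vehicle 3 and emodin 4, 5 and 8 (-0.67 to -0.82), and with total counts (-0.72) or no filter (-0.76).

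Amino acid transporters were represented by 8 tested genes of 10, of which 2 rose and 1 fell (median 0.49). The shares over all tested entries were 7.70% higher and 5.47% lower. Slc6a9, a glycine transporter, went from 21.6 to 30.8 CPM in vehicle livers to 33.6 to 59.4 CPM in emodin livers. The groups did not overlap, as in 0.937% of all tested entries in that direction, and the log2 fold change was 0.82 ± 0.12 (edgeR adjusted p = 0.000666). Slc3a2, the heavy chain of several exchangers, had 0.49 (adjusted p = 0.0279) and lost its call without vehicle 4, emodin 2 or emodin 4 (0.47, 0.44 and 0.45) and with array quality weights (0.28). Slc38a2, a transporter of small neutral amino acids, had -0.52 (adjusted p = 0.0261) and lost its call without vehicle 3, vehicle 8 or emodin 2 (-0.49, -0.47 and -0.50). Of 13 tRNA synthetase and export genes, another set of ATF4 targets, 1 rose and 0 fell (median 0.13). It was Aars, which charges alanine, at 0.43 (adjusted p = 0.0310), lost without vehicle 2, 5 or 8 or emodin 2, 4, 5 or 8 (0.36 to 0.43) and with array quality weights (0.23).

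Downstream of serine synthesis, 17 of 19 genes of serine, glycine and one-carbon metabolism were tested, with 3 higher and 4 lower (median -0.08). Among all tested entries the shares were 7.70% higher and 5.47% lower. Mthfd1l, a mitochondrial enzyme that releases formate, rose from 0.461 to 1.47 CPM in vehicle livers to 1.46 to 7.46 CPM in emodin livers (1.55 ± 0.32, edgeR adjusted p = 0.00591), with 7 of 8 emodin livers above every vehicle liver, and 0.90 in limma-trend, where it was called too. Glyctk, which phosphorylates glycerate, and Sdsl, a serine dehydratase-like enzyme, rose by 0.30 (adjusted p = 0.0118) and 0.40 (adjusted p = 0.0216). Amt, a subunit of the glycine cleavage system, fell from 31.8 to 40.6 CPM to 18.3 to 29.6 CPM (-0.62 ± 0.10, adjusted p = 0.000933). Agxt, which turns glyoxylate into glycine, fell from 179 to 209 CPM to 105 to 168 CPM (-0.43 ± 0.10, adjusted p = 0.0113). In both genes every emodin liver was below every vehicle liver, as in 1.03% of all tested entries. Gcsh, another subunit of glycine cleavage, fell by 0.27 (adjusted p = 0.0215), and cytosolic Shmt1, which interconverts serine and glycine, by 0.42 (adjusted p = 0.0255). Shmt1 lost its call without vehicle 3 or emodin 2 (-0.39 and -0.38), and mitochondrial Shmt2 was not called (-0.17, adjusted p = 0.254).

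**Figure D4:**
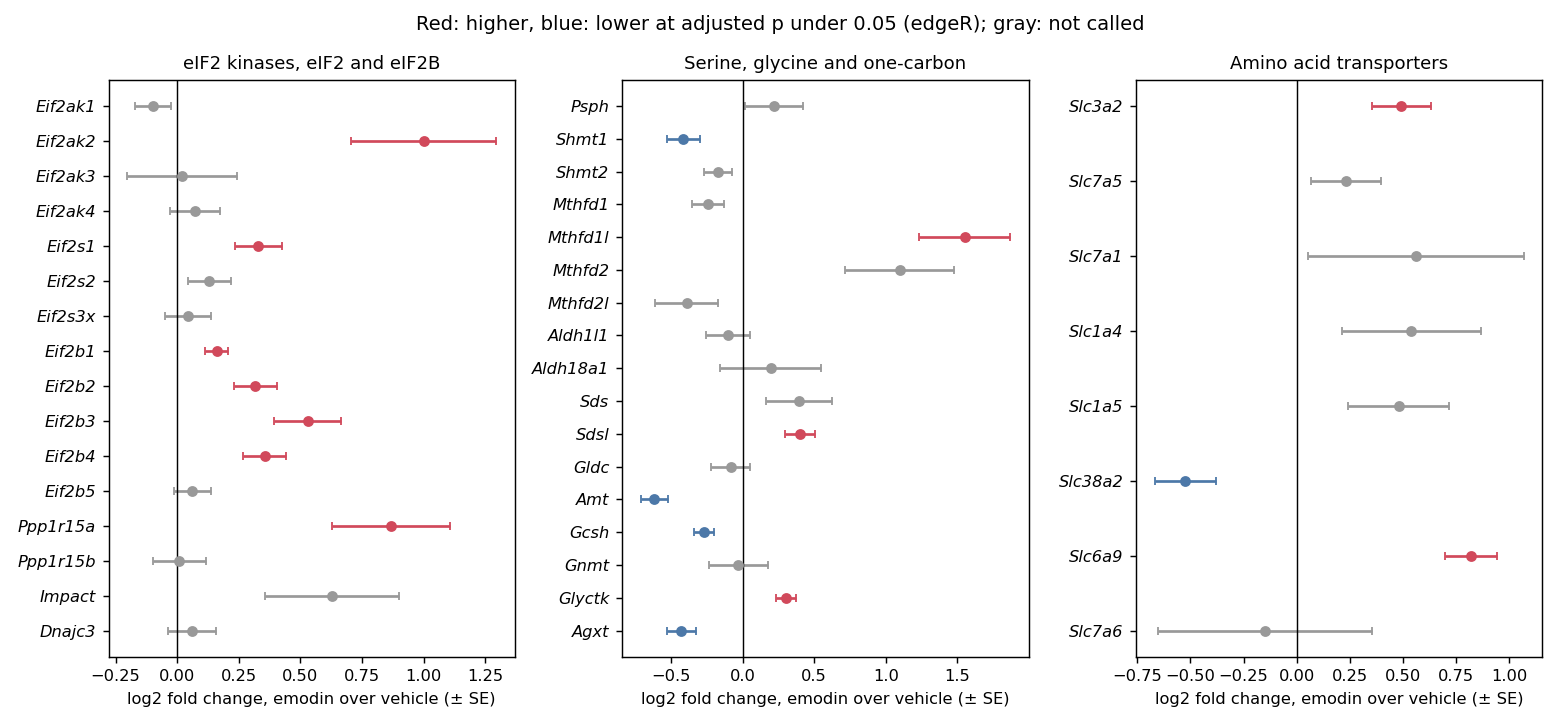
Log2 fold change of emodin over vehicle ± SE (n = 8 livers per group) for the tested genes of the eIF2 list, the serine, glycine and one-carbon list and the amino acid transporters, with red for called higher, blue for called lower and gray for not called. Called genes lie on the positive side in the first list (7 of 16) and on both sides in the second (3 higher, 4 lower) and in the last (2 higher, 1 lower). Over all tested entries the shares called were 7.70% higher and 5.47% lower.

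In the remaining lists, 2 of 12 other tested ATF4 targets rose and 1 fell (median 0.17). The shares over all tested entries were 7.70% higher and 5.47% lower. Eif4ebp1, a repressor of cap-dependent translation, rose by 0.55 ± 0.12 (edgeR adjusted p = 0.00918), with 7 of 8 emodin livers above the vehicle range, and Bbc3, the cell death gene that encodes PUMA, rose by 0.89 (adjusted p = 0.0178). Vldlr, a lipoprotein receptor, had -1.46 (adjusted p = 0.0295) and lost its call without vehicle 2, vehicle 8, emodin 2 or emodin 4 (-1.12, -1.37, -1.45 and -1.36) or with no filter (-1.45). Of 10 genes of transsulfuration and glutathione turnover, 1 fell: Chac2, the constitutive relative of Chac1, by 0.36 (adjusted p = 0.0197). Of 7 genes of mitochondrial stress 0 were called (median -0.05), and Clpp, a matrix protease subunit, had the smallest p (0.25, adjusted p = 0.0903), passing without emodin 7 (0.29, adjusted p = 0.0422).

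The other branches of the unfolded protein response are run by XBP1 and ATF6. Of their 15 genes 1 rose and 1 fell (median 0.15), beside 7.70% higher and 5.47% lower over all tested entries. Xbp1 had 0.38 (edgeR adjusted p = 0.0451) and lost its call without vehicle 2, 3, 4, 5, 7 or 8 or emodin 2, 4 or 5, at 0.30 to 0.38, and with array quality weights (0.27) or no filter (0.38). Ern1, which encodes the sensor IRE1α that splices Xbp1 RNA, fell by 0.47 ± 0.10 (adjusted p = 0.00712).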

How the data were processed

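Total liver RNA was sequenced in 16 libraries, 8 per group, grouped by the treatment in the labels. The deposited values carry FPKM in their name, a measure scaled by library size and gene length. They are whole numbers, however, and were taken as estimated counts per gene that the authors had not scaled. This reading rests on the values alone, and which tool made them is not stated. The tools named, without roles, per the submitters' processing notes are Cufflinks 2.2.1, HTSeq 0.6.1, HISAT2, cutadapt 1.9.1 and SAMtools 0.1.19, and the genome is mm10, so how reads shared between genes were treated is unknown. All 16 value columns were used (0 set aside), and 5613 entries without an Ensembl ID were kept in the tests.

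The fit used edgeR 4.0.16 (R 4.3.3) with filterByExpr, TMM factors, robust quasi-likelihood F test, group as the single term, Benjamini-Hochberg adjustment over 14308 entries, called at an adjusted p under 0.05. The values were whole, so rounding changed nothing. CPM used library sizes over the tested entries, RPKM the exon lengths of GENCODE M21 (mm10), and the SE is the absolute log2 fold change over the square root of F. The steps were tested on simulated data. Alternatives were other scaling factors (RLE, total counts, TMM without the 50 most abundant genes), no filter, DESeq2 1.42.0, limma 3.58.1 (voom with array weights, and trend on log2(CPM + 1)), a replicate block and each library left out in turn.

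The 10 genes and the other gene lists were chosen with earlier results of these data known. From each other list the called genes are named, at most 4 per direction by adjusted p, or the gene with the smallest p where none was called, and Psph, Shmt1, Shmt2, the 4 eIF2 kinases, Ppp1r15a, Atf3, Klb, Gfral, Ppara and Trp53 in any case. There are no molecular identifiers, so error beyond counting is present and every test uses the spread between livers. Over all entries 1102 were called higher and 782 lower. A bile duct marker is not reported here.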

Additional observations from a re-analysis of the deposited data

Results flagged for a closer look

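In each group of 8 livers, the highest and the lowest CPM of each of the 10 genes was set against its nearest neighbour. A liver stood apart when that gap, divided by the range of the group, was above Dixon's 95% critical value for 8 samples. For independent, normally distributed values chance does this in about 1 in 20 groups. That rate need not hold here, since CPM of low counts can be skewed and the groups share the same 16 livers. In the 20 groups tested, livers stood apart 7 times, and this number was not set against a chance rate. In the vehicle group these were vehicle 1 for Atf4, at 113 CPM with the next liver at 82.4, and vehicle 7 for Asns, at 9.43 CPM with the next at 4.38. Emodin 5 stood apart for Atf4 at 135 CPM (next 96.0) and for Gdf15 at 333 CPM (next 80.8). Emodin 8 stood apart for Asns at 25.7 CPM (next 10.6), for Psat1 at 11.0 CPM (next 4.39) and for Phgdh at 1.10 CPM (next 0.299).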

How the results depend on the processing

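Of the 10 genes, 3 were called higher. The count was 2 with no filter on low counts and 5 in DESeq2 (Chac1 and Fgf21 added). It was 0 with array quality weights, 0 in limma-trend and 2 to 4 with each library left out in turn (4 without emodin 7 or emodin 8). The array weights were lowest in emodin 8 (0.276), emodin 4 (0.376) and emodin 5 (0.455), against 0.714 to 1.94 in vehicle livers. Gdf15 and Psat1 were above the vehicle range in all of these emodin livers. Over all entries, leaving out each library gave 709 to 1333 called higher (709 without emodin 4) and 521 to 903 called lower (521 without emodin 2). Signs turned in genes whose main log2 fold change was near 0 (Atf4 0.09, Trib3 0.03 and Eif2ak3 0.02). With array weights Atf4 had -0.039, Trib3 -0.19 and Eif2ak3 -0.35, the last of which was not near 0. In limma-trend Trib3 had -0.074 and Eif2ak3 -0.052. With libraries left out in turn these 3 ranged from -0.037 to 0.18, from -0.15 to 0.15 and from -0.17 to 0.11. Phgdh, fitted only without the filter or in DESeq2, had log2 values of 0.38 and 0.37, and its difference in CPM ran from -0.0639 (without emodin 8) to 0.0926 (without emodin 7). A prior count of 0.5 gave differences of 1.91 and 1.30 for the ratios of Psat1 to Phgdh and to Psph. Apart from the replicate block, the alternatives gave 1 to 5 p53 genes, 3 to 7 eIF2 genes, 0 to 3 partner factors, 1 to 3 transporters, 0 to 2 tRNA synthetase genes and 2 to 4 other ATF4 targets called higher. The causes were not tested.

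The same replicate numbers stand in both groups, but deviations of same-numbered livers correlated at -0.17 to 0.27 and 1 of 8 numbers matched best with its own, so the numbers were not taken as pairs. With the replicate block 0 of the 10 genes were called higher and the entries called higher numbered 628; Gdf15 had 2.01, Psat1 1.53, Trib3 -0.089 and Eif2ak3 -0.059, and the Psat1 to Psph difference had an exact sign-flip permutation p of 0.0547 at 1.25. Depth limits Phgdh and Psat1 most, with 0 to 13 estimated counts of Phgdh outside emodin 8 and 8 to 29 of Psat1 in vehicle livers.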

Other observations

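Markers of other cells were summed in each liver. Macrophage genes were at 153 to 671 CPM in vehicle livers and 235 to 629 CPM in emodin livers, highest in emodin 5 among the latter. Lymphocyte genes were at 5.88 to 15.7 CPM and 3.08 to 6.58 CPM, stellate cell genes at 200 to 437 CPM and 160 to 292 CPM, endothelial genes at 166 to 256 CPM and 155 to 238 CPM, and neutrophil genes at 1.15 to 5.66 CPM and 2.45 to 8.27 CPM. Their part in the values of the 10 genes was not tested.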
